A study of Arabidopsis thaliana with 6 samples.

Results

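The genes described here are nuclear genes of Arabidopsis thaliana whose deposited description names the mitochondrion, outside the pentatricopeptide repeat (PPR) family of organelle RNA-binding proteins. A gene was taken when its description held the word "mitochondrial" and none of the words pentatricopeptide, chloroplastic, tRNA ligase, elongation factor, initiation factor or heat shock. Of the 5330 genes in both deposited tables, 90 had the word, 43 were left out by the other words, and 47 remained. RNA was sequenced from whole seedlings of a line labelled as the epl1a epl1b double mutant and of wild type, both in the Columbia-0 (Col-0) ecotype, with 3 libraries per genotype. EPL1A and EPL1B are the Enhancer of Polycomb subunits of NuA4, a complex that acetylates histone H4, and the series asks how that complex acts on nuclear and plastid transcription in chloroplast formation. Seeds of both genotypes were kept at 4 °C for 3 days. The seedlings then grew at 22 °C on medium with 1% sucrose, with 16 h of light at 100 µmol and 8 h of dark, and were collected at 14 days, at Zeitgeber time 8 h. No other agent is named for either genotype. The sources used here do not give where the alleles interrupt the genes, or how many plants went into a library. The design text speaks of 3 independent experiments.

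Plant mitochondria oxidise organic and amino acids, and pass the electrons along a respiratory chain that ends in cytochrome c oxidase. They also hold a bypass that pumps no protons, with alternative NAD(P)H dehydrogenases at its start and alternative oxidases at its end. Its genes are known to be induced when mitochondria or chloroplasts are disturbed, through nuclear factors such as ANAC013 and ANAC017. In green leaves, mitochondria further decarboxylate the glycine made in photorespiration, so a part of their work depends on the chloroplast.

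Every gene in the tables has a deposited log2 fold change beyond 1 in either direction and a deposited false discovery rate below 0.05. Genes outside these limits were not analysed here. Levels are given as normalised reads: raw reads over a scaling factor of the library, set to 1 for Col-0 replicate 1. Fold changes and adjusted p-values are from the edgeR quasi-likelihood test with Benjamini-Hochberg adjustment over 4773 listed genes. Because the tables were drawn up from these very libraries, the test called all of them (100.0%), with 63.1% higher and 36.9% lower. A call for a member therefore restates its listing, and what differs between members is direction, size, level and spread.

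Facts of the libraries that touch several results come first. Reads in listed genes numbered 7355421 to 8625707 per library labelled epl1ab and 9265086 to 10938542 per Col-0 library; these are not library depths. EPL1A (AT1G16690) was at 124.5 ± 3.34 normalised reads in the libraries labelled epl1ab and 367.2 ± 9.59 in Col-0 (SD, n = 3 each). EPL1B (AT1G79020) went against its label, at 17051 ± 68.8 in the libraries labelled epl1ab and 719.5 ± 57.5 in Col-0 (SD, n = 3 each). The libraries are therefore called epl1ab-labelled, and every direction is drawn between labels. For any list of genes the background is that, of 27443 protein-coding genes, 3379 were listed higher and 1731 lower. Most protein-coding genes were thus not in the tables. Of 11 green-leaf markers 7 were in the tables, all lower, and of 6 root markers only WRKY75 was, listed higher. Of 18 seed maturation genes 17 were listed higher. Their summed level was 1224.8, 207016 and 300395 normalised reads in epl1ab-labelled replicates 1, 2 and 3, against 118.3 to 482.0 in Col-0. In whole seedlings, fewer cells of a type and less RNA per cell cannot be told apart.

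The members split almost evenly: 25 of 47 (53.2%) were listed higher and 22 (46.8%) lower, against 66.1% higher and 33.9% lower among all listed genes. In all 47 the lowest library of one genotype lay above the highest of the other, which held for 98.5% of listed genes (64.7% higher and 33.9% lower). The edgeR count filter left 45 members in the fit, of which 23 were called higher and 22 lower. SDH2-3 and AOX2 did not pass it. The median log2 fold change was 1.03 over the 45 members and 1.26 over all genes in the fit. With changes on both sides of a gap between -1 and 1, that median lies at the edge of the gap and says little of a typical member.

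Members that rose and members that fell differed in level. Those listed higher had a median of 146.7 normalised reads in epl1ab-labelled libraries and 42.3 in Col-0, and 16 of the 25 were under 100 in Col-0. Those listed lower had a median of 585.1 in epl1ab-labelled libraries and 1349 in Col-0, and 1 of the 22 was under 100 in Col-0. All listed genes showed the same order, with Col-0 medians of 30.4 for genes listed higher and 1438 for genes listed lower. For falls, the authors' deposited tables gave a median log2 fold change of -1.23 for the members listed lower and -1.45 for all genes listed lower. In 15 of these 22 members the deposited log2 fold change was smaller than 1.5 in size. For members listed higher the authors' median was 1.85, against 1.94 for all genes listed higher.

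**Figure D1:**
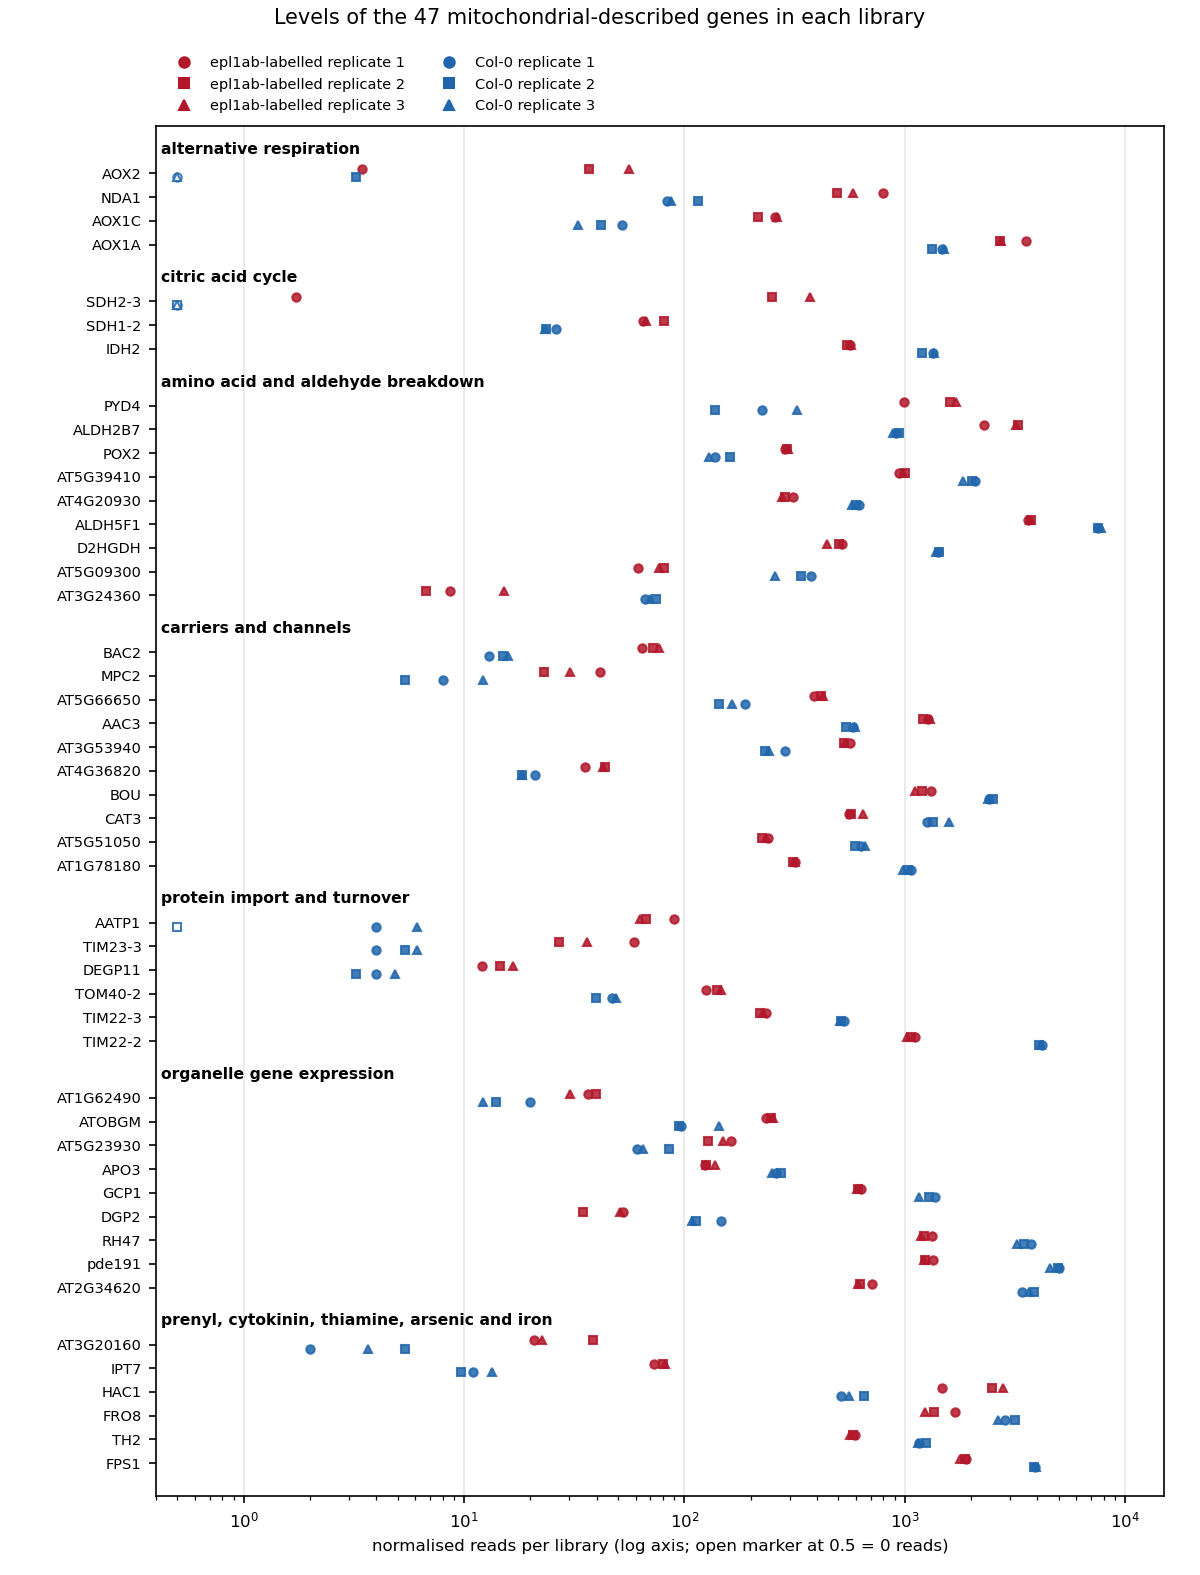
Normalised reads on a log axis in each of the 3 epl1ab-labelled and 3 Col-0 libraries for the 47 genes, grouped by role; an open marker stands for 0 reads. Colours separate for every gene, and SDH2-3 and AOX2 show epl1ab-labelled replicate 1 near or at the Col-0 levels.

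The bypass of the respiratory chain was represented by 4 genes, all higher. AOX1A, AOX1C and AOX2 encode alternative oxidases, which pass electrons from ubiquinol to oxygen, and NDA1 encodes an internal alternative NAD(P)H dehydrogenase. The other 8 of the 12 alternative oxidase and alternative dehydrogenase genes, among them AOX1D and NDB2, were not in the tables. Summed over the 4 genes, levels were 4605.9, 3456.9 and 3622.4 normalised reads in the epl1ab-labelled libraries, against 1606, 1486.6 and 1623.9 in Col-0. AOX1A made up most of that sum in every library.

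AOX1A (AT3G22370, chromosome 3, 7906521 to 7908746, plus strand, TAIR10) had 3544.6, 2712.2 and 2723.7 normalised reads in epl1ab-labelled replicates 1, 2 and 3, and 1471, 1326.6 and 1504.3 in Col-0. The lowest epl1ab-labelled library stood 1.80-fold above the highest Col-0 library. It rose 2.09-fold (log2 fold change 1.06 ± 0.12 SE, edgeR adjusted p = 9.01e-05). With size factors computed on the listed genes its log2 fold change was -0.03. Such size factors assume that most genes are unchanged, but every listed gene was selected as changed, with 66.1% listed higher. They shifted log2 fold changes by a median of -1.11 over all genes in the fit, rises and falls alike. NDA1 (AT1G07180, chromosome 1, 2204104 to 2207099, plus strand) had 799.8, 491.9 and 579.1 in epl1ab-labelled libraries and 83.0, 114.9 and 86.6 in Col-0. It rose 6.57-fold (log2 fold change 2.72 ± 0.23 SE, edgeR adjusted p = 2.05e-05). Like AOX1A it was highest in epl1ab-labelled replicate 1, the library with the fewest seed maturation reads of the 3. The part of seed maturation transcripts in either pattern was not tested.

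AOX1C (AT3G27620, chromosome 3, 10229045 to 10230707, minus strand) had 257.9, 216.1 and 263.6 normalised reads in epl1ab-labelled libraries and 52.0, 41.9 and 32.9 in Col-0, a rise of 5.78-fold (edgeR adjusted p = 1.54e-05). AOX2 (AT5G64210, chromosome 5, 25683770 to 25685731, minus strand), an alternative oxidase known from seeds, followed another pattern. It had 3.46, 36.7 and 56.1 normalised reads in epl1ab-labelled replicates 1, 2 and 3, and 0, 3.22 and 0 in Col-0. Replicate 1 lay 1.07-fold above the highest Col-0 library, and the higher levels of AOX2 were in replicates 2 and 3. Over each group it had 109 and 3 reads, a scaled ratio of 29.5. Its 95% exact (Clopper-Pearson) interval ran from 9.83 to 145.3 and takes in counting error alone. Set per kilobase of exon, mean levels in epl1ab-labelled libraries were 1697 normalised reads for AOX1A, 287.5 for NDA1, 182.7 for AOX1C and 24.2 for AOX2. In Col-0 they were 812.9, 43.7, 31.4 and 0.811 in the same order of genes, so AOX1A was the most abundant in both genotypes.

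The 250 bases before the annotated start of NDA1 and AOX2 are shown as windows of this class with different motifs. Whether motifs go with the levels of these genes in any library was not tested. The search covered 5 motifs on both strands, and matches are in capitals. In NDA1 these are the mitochondrial dysfunction motif, known to be bound by ANAC013 and ANAC017, and the site II element, TGGGCC or TGGGCT. In AOX2 they are the G-box CACGTG. Both windows, from the TAIR10.1 reference, run 5′ to 3′ on the gene's strand, NDA1 at chr1:2203854-2204103 on the plus strand and AOX2 at chr5:25685732-25685981 on the minus strand.
NDA1: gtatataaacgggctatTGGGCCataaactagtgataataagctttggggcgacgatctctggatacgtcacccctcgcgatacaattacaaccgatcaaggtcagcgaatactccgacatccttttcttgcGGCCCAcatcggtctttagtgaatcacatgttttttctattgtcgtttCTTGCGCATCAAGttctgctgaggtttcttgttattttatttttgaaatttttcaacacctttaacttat
AOX2: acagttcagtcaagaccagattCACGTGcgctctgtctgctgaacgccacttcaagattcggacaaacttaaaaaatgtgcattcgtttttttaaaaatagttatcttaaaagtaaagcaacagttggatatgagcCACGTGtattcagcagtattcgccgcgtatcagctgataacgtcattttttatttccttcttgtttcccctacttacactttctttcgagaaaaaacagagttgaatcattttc
NDA1 was the 1 member of 47 with the mitochondrial dysfunction motif in this window, which 2.55% of genes listed higher, 1.39% of those listed lower and 1.75% of 27443 protein-coding genes hold. No match in AOX1A or AOX1C says only that these letters are not in this window.

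Among citric acid cycle genes 3 members were found, 2 listed higher and 1 lower. SDH2-3 (AT5G65165, chromosome 5, 26034422 to 26036057, minus strand) encodes an iron-sulfur subunit of succinate dehydrogenase known from embryos and seeds. It had 1.73, 248.8 and 372.4 normalised reads in epl1ab-labelled replicates 1, 2 and 3 and 0 reads in all Col-0 libraries. Replicate 1 held 2 reads of the gene, while replicates 2 and 3, which also hold most seed maturation reads, held 258 and 445. Over the group the level was 190.8 times a set floor of 3 counts over Col-0. That value takes in no spread between libraries, and nearly all its reads are from replicates 2 and 3. SDH1-2, a flavoprotein subunit of the same enzyme, had 64.9, 81.0 and 66.9 in epl1ab-labelled libraries and 26.0, 23.6 and 23.2 in Col-0. It rose 2.91-fold (log2 fold change 1.54 ± 0.19 SE, edgeR adjusted p = 0.000147), with a similar level in epl1ab-labelled replicates 1 and 3. With size factors of the listed genes the call of SDH1-2 was lost (log2 fold change 0.43, edgeR adjusted p = 0.0935). IDH2, a subunit of NAD-dependent isocitrate dehydrogenase, fell 2.32-fold (log2 fold change -1.21 ± 0.09 SE, edgeR adjusted p = 1.07e-05), with 561.3 ± 11.9 in epl1ab-labelled libraries and 1300.6 ± 93.9 in Col-0 (SD, n = 3 each). Of 28 citric acid cycle and pyruvate dehydrogenase genes 24 were not in the tables. The fourth listed gene, CSY5, described as a citrate synthase, had 4.33, 6.75 and 8.37 in epl1ab-labelled libraries and 0 reads in Col-0. The window before SDH2-3, chr5:26036058-26036307 on the minus strand, is shown because this gene had the largest spread among libraries. Capitals mark a G-box next to the start and a pair of site II elements. A link of these motifs to that spread was not tested.
SDH2-3: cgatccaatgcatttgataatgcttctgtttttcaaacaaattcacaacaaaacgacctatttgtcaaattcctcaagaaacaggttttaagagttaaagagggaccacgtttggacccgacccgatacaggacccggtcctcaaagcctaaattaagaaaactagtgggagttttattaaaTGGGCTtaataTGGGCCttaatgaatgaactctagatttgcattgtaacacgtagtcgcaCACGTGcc

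Enzymes that break down amino acids and aldehydes numbered 9, with 3 higher and 6 lower. PYD4, an aminotransferase of uracil and beta-alanine breakdown, had 994.6, 1595.3 and 1702 normalised reads in epl1ab-labelled libraries and 225, 137.5 and 324.5 in Col-0. It rose 6.25-fold (log2 fold change 2.64 ± 0.34 SE, edgeR adjusted p = 0.000173) and varied more than most members in both genotypes. ALDH2B7, a mitochondrial aldehyde dehydrogenase, had 2280.9, 3275.5 and 3188.1 in epl1ab-labelled libraries and 912, 938.8 and 879.7 in Col-0, a rise of 3.20-fold (edgeR adjusted p = 2.00e-05). POX2, a proline dehydrogenase, rose 2.04-fold (edgeR adjusted p = 0.000166), with 291.1 ± 4.14 in epl1ab-labelled libraries and 142.8 ± 16.4 in Col-0 (SD, n = 3 each). Its log2 fold change was -0.09 with size factors of the listed genes.

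Of the 6 members that fell, 3 have descriptions from branched-chain amino acid breakdown. AT5G09300, an alpha subunit of the branched-chain 2-oxoacid dehydrogenase, had 61.5, 81.0 and 77.0 normalised reads in epl1ab-labelled libraries and 376, 338.4 and 258.7 in Col-0. It fell 4.43-fold (log2 fold change -2.15 ± 0.19 SE, edgeR adjusted p = 2.84e-05). Another gene for this subunit, AT1G21400, which is no member because its description does not name the organelle, rose, with 3055.6, 2808.7 and 2304.5 in epl1ab-labelled libraries and 1386, 1356.7 and 1170 in Col-0. Its edgeR log2 fold change was 1.06 (adjusted p = 9.25e-05), and -0.04 with size factors of the listed genes. AT3G24360, described as a 3-hydroxyisobutyryl-CoA hydrolase-like protein, had 8.66, 6.75 and 15.1 in epl1ab-labelled libraries and 66.0, 74.1 and 69.5 in Col-0, a fall of 6.74-fold, the largest among members listed lower. AT4G20930, described as a 3-hydroxyisobutyrate dehydrogenase of valine breakdown, fell 2.06-fold. D2HGDH, which oxidises D-2-hydroxyglutarate and feeds electrons into the chain, had 489.6 ± 39.4 in epl1ab-labelled libraries and 1405.8 ± 26.1 in Col-0 (SD, n = 3 each). Its log2 fold change was -1.52 ± 0.09 (SE; edgeR adjusted p = 4.71e-06). ALDH5F1, the succinate-semialdehyde dehydrogenase of the GABA shunt, had the highest mean level of all members. It had 3624.3, 3730.8 and 3694.4 in epl1ab-labelled libraries and 7547, 7559.9 and 7751 in Col-0, a fall of 2.07-fold (edgeR adjusted p = 3.97e-06). The saccharopine dehydrogenase-like gene AT5G39410 fell 2.03-fold. Of 22 genes in a list of mitochondrial amino acid breakdown, 3 were listed higher, 2 lower and 17 were not in the tables.

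**Figure D2:**
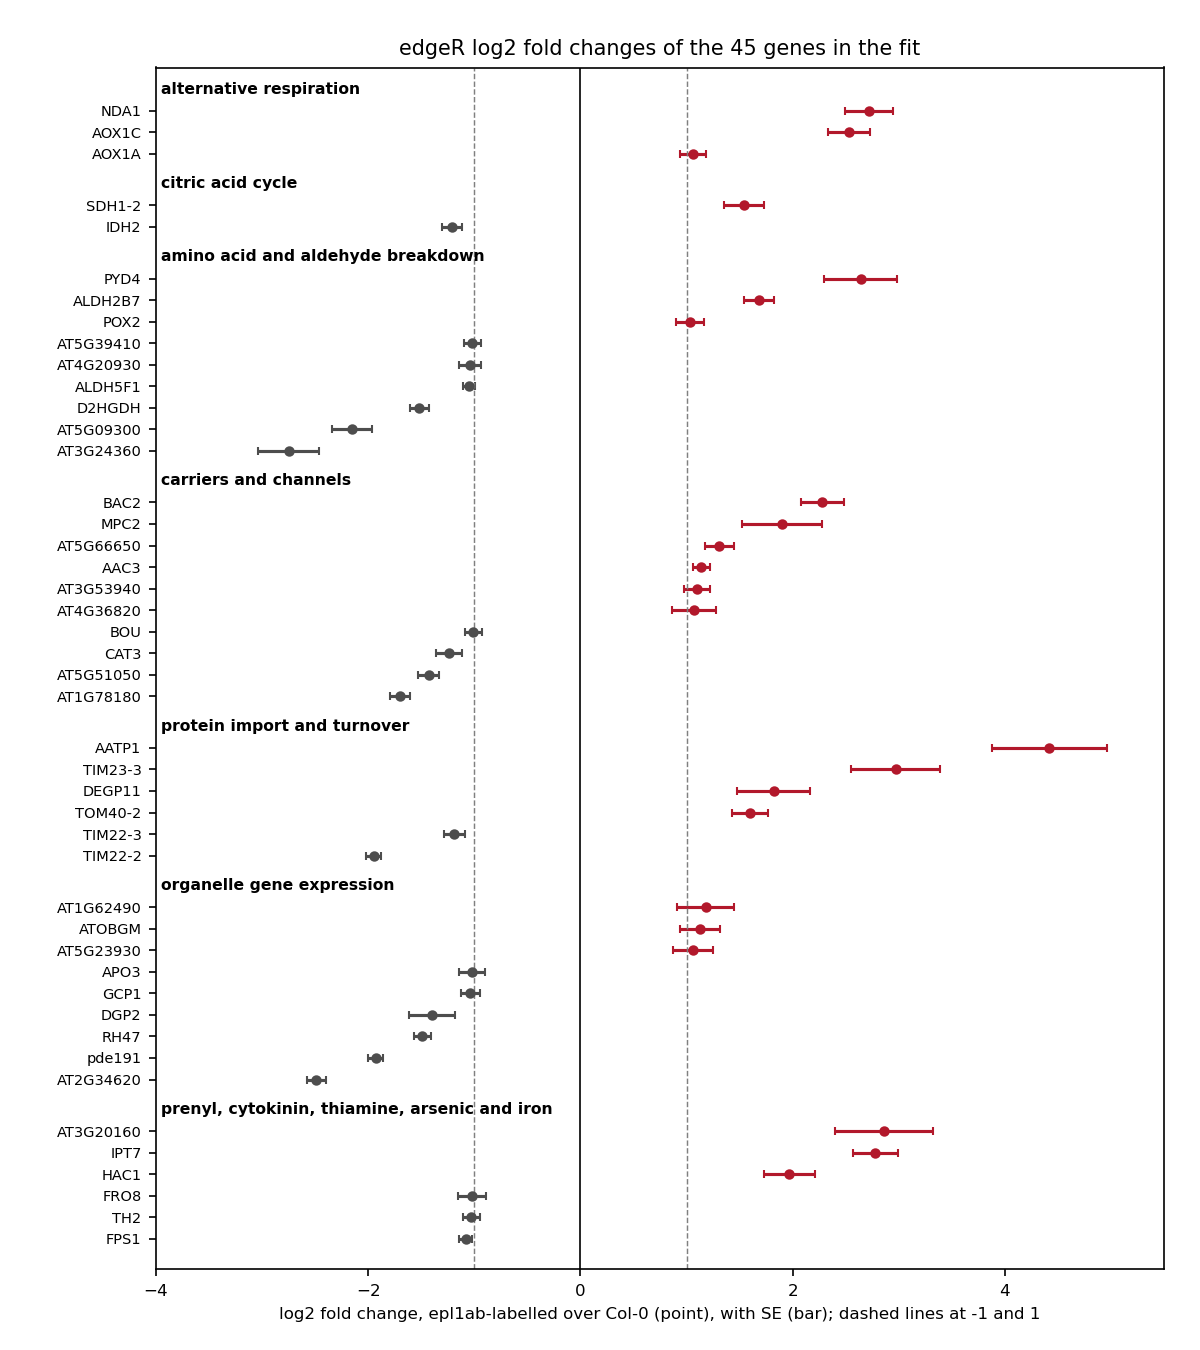
edgeR log2 fold changes of epl1ab-labelled over Col-0 libraries (points) with SE (bars) for the 45 genes in the fit, grouped by role; dashed lines mark -1 and 1. AATP1 lies furthest right at 4.42, AT3G24360 furthest left at -2.75, and many falls sit close to -1.

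Of the 10 carriers and channels, 6 rose and 4 fell. BAC2, a carrier of arginine and other basic amino acids, had 64.1, 72.3 and 77.0 normalised reads in epl1ab-labelled libraries and 13, 15.0 and 15.9 in Col-0. It rose 4.85-fold (log2 fold change 2.28 ± 0.20 SE, edgeR adjusted p = 2.73e-05). MPC2, of the pyruvate carrier family, rose 3.73-fold at low counts, with 108 reads over the epl1ab-labelled libraries and 23 over Col-0; with size factors of the listed genes its call was lost (log2 fold change 0.82, edgeR adjusted p = 0.108). Both listed genes described as mitochondrial calcium uniporters rose, AT5G66650 2.47-fold and AT4G36820 2.10-fold, but neither was called with size factors of the listed genes (log2 fold changes of 0.20 and -0.04, edgeR adjusted p = 0.28 and 0.891). AT4G36820 also missed the threshold with epl1ab-labelled replicate 1 alone (log2 fold change 0.88, edgeR adjusted p = 0.0641). AAC3, an exchanger of ADP and ATP, had 1278.5, 1211.4 and 1300.4 in epl1ab-labelled libraries and 582, 543.5 and 596.6 in Col-0, a rise of 2.20-fold; with size factors of the listed genes its call was lost (log2 fold change 0.03, edgeR adjusted p = 0.857). The substrate carrier AT3G53940 rose 2.14-fold, but was at a log2 fold change of -0.01 with size factors of the listed genes.

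The carriers that fell include further carriers of adenine nucleotides. AT1G78180, described as a probable adenine nucleotide transporter, had 317.7, 310.6 and 317.1 normalised reads in epl1ab-labelled libraries and 1066, 1029 and 978.5 in Col-0. It fell 3.25-fold (log2 fold change -1.70 ± 0.09 SE, edgeR adjusted p = 2.84e-06), with the lowest spread among epl1ab-labelled libraries of any member. AT5G51050, annotated as the ATP/phosphate carrier APC2, fell 2.70-fold and CAT3, a cationic amino acid transporter, fell 2.37-fold. BOU, an inner-membrane carrier that leaves need for photorespiration, had 1317.4, 1202.8 and 1112.9 in epl1ab-labelled libraries and 2415, 2525.3 and 2384 in Col-0. It fell 2.02-fold (log2 fold change -1.01 ± 0.08 SE, edgeR adjusted p = 1.63e-05) and lay closest of all members to the authors' threshold. Of 11 photorespiratory genes of mitochondria the tables held 1 other, GDH1 (AT2G35370), an H protein of glycine decarboxylase. It had 5186.7, 3964.2 and 3887.7 in epl1ab-labelled libraries and 19726, 20049 and 19996 in Col-0, an edgeR log2 fold change of -2.20 (adjusted p = 3.73e-06). Among 5 uncoupling protein and dicarboxylate carrier genes 1 was listed, PUMP6, lower, from few reads.

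Protein import and turnover held 6 members, of which 4 rose and 2 fell. AATP1 (AT5G40010, chromosome 5, 16020058 to 16021916, minus strand), an AAA-ATPase, had 89.2, 66.6 and 62.8 normalised reads in epl1ab-labelled libraries and 4.0, 0 and 6.10 in Col-0. The lowest epl1ab-labelled library stood 10.3-fold above the highest Col-0 library. It rose 21.4-fold (log2 fold change 4.42 ± 0.54 SE, edgeR adjusted p = 0.000129), from 9 reads over Col-0. Without Col-0 replicate 3 the log2 fold change was 5.06. AATP1 passed the count filter only through the epl1ab-labelled libraries, where it was high, so its adjusted p adds no support to its listing. TIM23-3 (AT3G04800, chromosome 3, 1314479 to 1315045, minus strand), a subunit of the inner-membrane import channel, had 58.9, 27.0 and 36.0 in epl1ab-labelled libraries and 4.0, 5.37 and 6.10 in Col-0. It rose 7.82-fold (log2 fold change 2.97 ± 0.42 SE, edgeR adjusted p = 0.000282) and was highest in epl1ab-labelled replicate 1. TIM23-3 too passed the count filter only through the epl1ab-labelled libraries. TOM40-2, a copy of the outer-membrane import pore, rose 3.03-fold, with 137.3 ± 10.7 in epl1ab-labelled libraries and 45.2 ± 4.80 in Col-0 (SD, n = 3 each). DEGP11, a protease, rose 3.53-fold from 11 reads over Col-0, but missed the threshold with epl1ab-labelled replicate 1 alone (log2 fold change 1.57, edgeR adjusted p = 0.0637) and with size factors of the listed genes (log2 fold change 0.72, edgeR adjusted p = 0.154).

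The genes listed lower in this class were TIM22-2 and TIM22-3, of a family of small membrane translocase proteins. TIM22-2 (AT4G26670, chromosome 4, 13452117 to 13454139, plus strand) had 1117.5, 1069.7 and 1025.9 normalised reads in epl1ab-labelled libraries and 4172, 4081.8 and 4143.3 in Col-0. It fell 3.86-fold (log2 fold change -1.95 ± 0.07 SE, edgeR adjusted p = 9.12e-07). TIM22-3 fell 2.28-fold (log2 fold change -1.19 ± 0.10 SE, edgeR adjusted p = 2.17e-05). In the RefSeq annotation both are placed in the chloroplast envelope as well as in the mitochondrial translocase. Of 21 genes in a list of the import machinery that did not hold these, 2 were listed, TIM23-3 and TOM20-1, both higher; 19 were not in the tables. PHB1, a prohibitin of the inner membrane, was the 1 gene listed of 9 prohibitin, AAA protease and Lon genes, and rose at an edgeR log2 fold change of 1.38 (adjusted p = 3.8e-06), with its call lost under size factors of the listed genes (0.27, adjusted p = 0.114).
The window before TIM23-3, chr3:1315046-1315295 on the minus strand, is shown as the member with most site II elements; the last capitals mark a telo-box, AAACCCTA.
TIM23-3: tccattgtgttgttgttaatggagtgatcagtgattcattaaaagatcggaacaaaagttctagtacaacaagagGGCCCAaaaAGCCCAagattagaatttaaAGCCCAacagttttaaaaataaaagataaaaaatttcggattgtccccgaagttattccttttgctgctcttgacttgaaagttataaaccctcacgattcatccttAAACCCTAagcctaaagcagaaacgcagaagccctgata

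Genes that act on organelle RNA and ribosomes numbered 9, with 3 higher and 6 lower, and the deepest falls were in the mTERF family. These proteins carry the name of a mitochondrial transcription termination factor, and in plants many of them act in chloroplasts. AT2G34620 (chromosome 2, 14577083 to 14578382, plus strand) had 708.1, 628.9 and 612.5 normalised reads in epl1ab-labelled libraries and 3409, 3851.9 and 3677.3 in Col-0. It fell 5.61-fold (log2 fold change -2.49 ± 0.09 SE, edgeR adjusted p = 9.12e-07). Its relative pde191 (AT4G38160), named for a pigment defect of its mutant, had 1338.2, 1233.6 and 1225.9 in epl1ab-labelled libraries and 5005, 4936.8 and 4538.6 in Col-0, a fall of 3.81-fold (edgeR adjusted p = 1.03e-06). The family members AT1G62490 and AT5G23930 rose 2.26-fold and 2.09-fold, at means of 35.3 and 146.7 in epl1ab-labelled libraries and 15.4 and 70.2 in Col-0. Neither was called with size factors of the listed genes, at log2 fold changes of 0.07 for AT1G62490 and -0.04 for AT5G23930 (edgeR adjusted p = 0.856 and 0.891). Per kilobase of exon, Col-0 levels were 3028 normalised reads for AT2G34620 and 2419.5 for pde191, and 40.0 for AT5G23930, so the members that fell were the more abundant ones in Col-0.

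RH47, an RNA helicase also known as ISE1 for its effect on cell-to-cell transport, had 1324.4, 1218.2 and 1186.6 normalised reads in epl1ab-labelled libraries and 3737, 3480.3 and 3231.9 in Col-0. It fell 2.80-fold (log2 fold change -1.49 ± 0.08 SE, edgeR adjusted p = 3.42e-06). DGP2, a GTPase, fell 2.64-fold. GCP1, which modifies tRNA, fell 2.05-fold and APO3, of a family of RNA-binding proteins, fell 2.03-fold. ATOBGM, an OBG-type GTPase, rose 2.20-fold, with 234.6, 246.0 and 252.7 in epl1ab-labelled libraries and 96.0, 94.5 and 144.0 in Col-0; with size factors of the listed genes its call was lost (log2 fold change 0.03, edgeR adjusted p = 0.905). None of 9 genes for organelle RNA polymerases and editing factors was in the tables.

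The last class joins synthesis of small molecules and handling of arsenic and iron, with 3 members higher and 3 lower. IPT7, an enzyme of cytokinin synthesis, had 72.7, 80.1 and 82.0 normalised reads in epl1ab-labelled libraries and 11, 9.67 and 13.4 in Col-0. It rose 6.86-fold (log2 fold change 2.78 ± 0.21 SE, edgeR adjusted p = 1.28e-05). HAC1, which reduces arsenate, had 1472.4, 2493.3 and 2795.7 in epl1ab-labelled libraries and 515, 650.9 and 558.8 in Col-0, a rise of 3.92-fold (log2 fold change 1.97 ± 0.24 SE, edgeR adjusted p = 0.000119). With epl1ab-labelled replicate 1 alone its log2 fold change was 1.36. AT3G20160, described as a geranylgeranyl pyrophosphate synthase, rose 7.24-fold from 10 reads over Col-0. FPS1, a farnesyl pyrophosphate synthase, had 1899.1, 1866.4 and 1774.8 in epl1ab-labelled libraries and 3898, 3858.4 and 3955.4 in Col-0, a fall of 2.11-fold (edgeR adjusted p = 3.74e-06). TH2, of thiamine synthesis, fell 2.04-fold and FRO8, described as a ferric reductase, fell 2.02-fold.

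The mean of replicates 2 and 3 lay between 0.8 and 1.25 times replicate 1 for 19 of the 22 members listed lower and 13 of the 25 listed higher. The median coefficient of variation over epl1ab-labelled libraries was 5.33% for members listed lower and 13.6% for those listed higher, beside 5.34% and 17.5% over Col-0. Neither these counts nor these spreads were taken over all listed genes, whose median ratio was 1.06. Members listed lower also had the higher levels, with epl1ab-labelled medians of 585.1 against 146.7. The part of level in these differences was not tested. In 2 members replicates 2 and 3 were each over 2-fold above replicate 1, SDH2-3 and AOX2, against 6.32% of all listed genes. In 0 members were both below 0.5 times replicate 1, against 0.713% of listed genes. Below those limits, the mean of replicates 2 and 3 was 1.80 times replicate 1 for HAC1 and 1.66 times for PYD4, and 0.535 times for TIM23-3, 0.641 times for MPC2 and 0.670 times for NDA1. The part of seed maturation transcripts in the rises of SDH2-3 and AOX2 was not tested. With epl1ab-labelled replicate 1 alone against Col-0, 21 of the other 23 members listed higher passed the edgeR threshold, and DEGP11 and AT4G36820 did not. The spread in that fit comes from Col-0 alone and the genes were listed with that library, so the count is a description and no test of agreement between libraries.

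**Figure D3:**
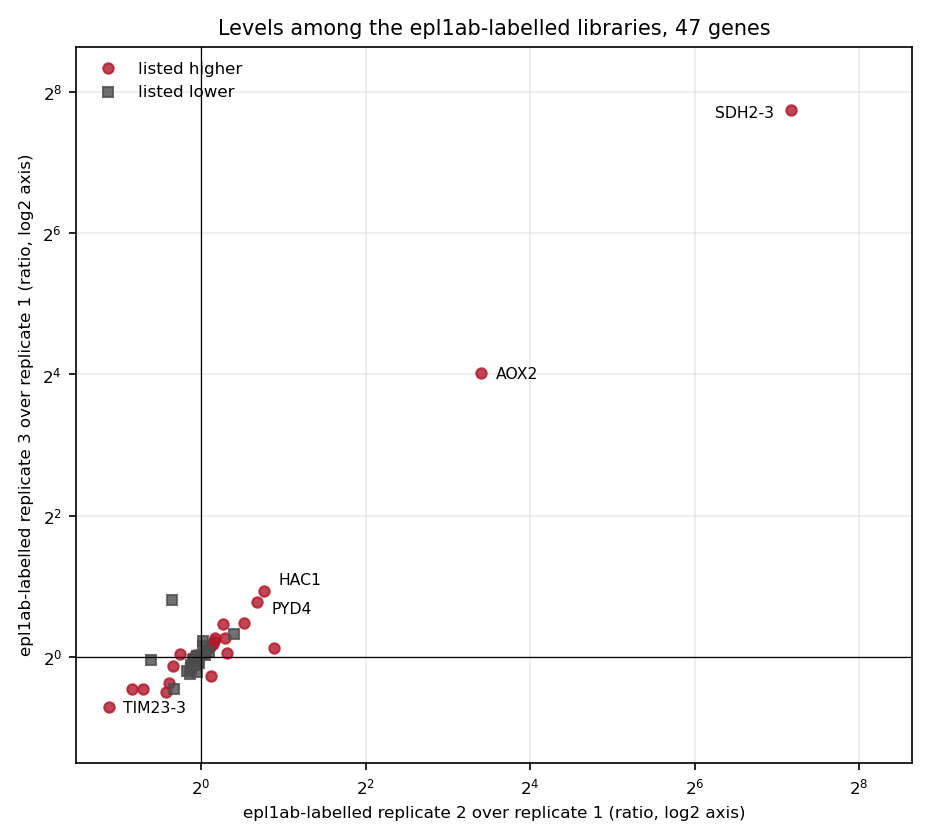
Ratio of the normalised reads of epl1ab-labelled replicate 2 (horizontal) and replicate 3 (vertical) to replicate 1, on log2 axes, for the 47 genes; circles are listed higher and squares lower. Most genes lie near 1 on both axes, and SDH2-3 and AOX2 stand far above.

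Lists of further mitochondrial genes place the members in context. Of 15 genes known to respond to disturbed mitochondria, 10 were listed and called higher and 0 lower, beside 12.3% of 27443 protein-coding genes listed higher; AOX1A is the 1 member among them. With size factors of the listed genes 2 of the 10, CRF6 and HSR4, were called higher. Their summed level was 11731, 10141 and 10740 normalised reads in epl1ab-labelled libraries, against 4532, 3896 and 4982.7 in Col-0. CRF6, a transcription factor of the cytokinin response, had an edgeR log2 fold change of 1.61 (adjusted p = 9.32e-06) and HSR4 (AT3G50930), an AAA-ATPase of the outer membrane, one of 2.20 (adjusted p = 8.23e-05). ANAC13 (AT1G32870), itself a regulator of such genes, had one of 1.10 (edgeR adjusted p = 3.06e-05), and -0.0018 with size factors of the listed genes. These genes were chosen for their known response, with results of these data known.

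**Figure D4:**
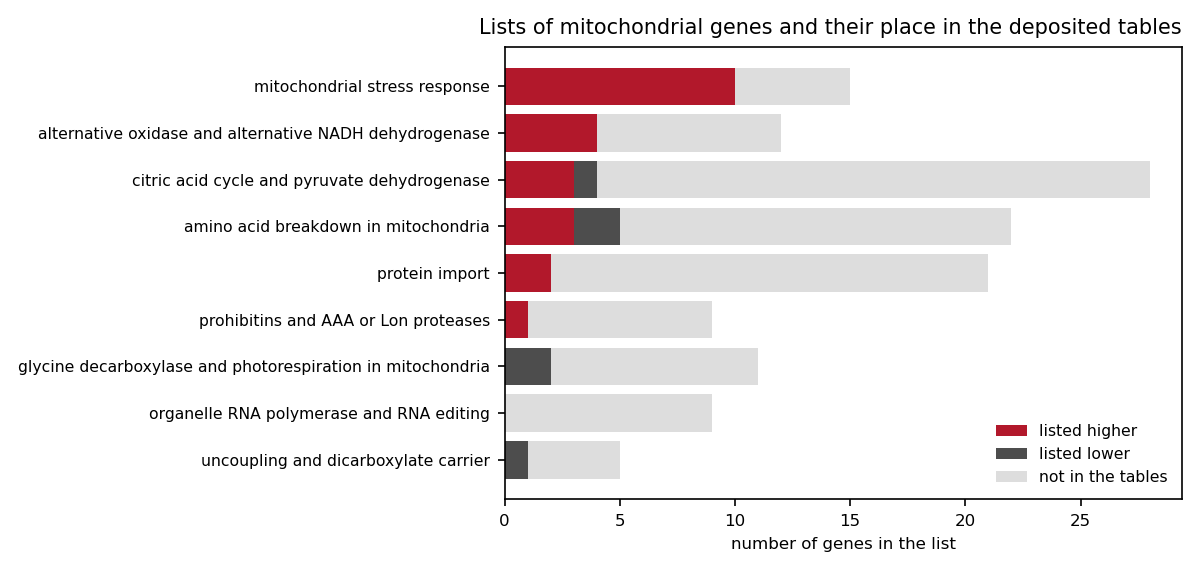
Number of genes in each list of mitochondrial genes that the authors listed higher, listed lower, or that were not in the tables. The stress list has 10 of 15 genes listed higher. Not in the tables were 24 of 28 citric acid cycle genes and 19 of 21 import genes. Of 27443 protein-coding genes, 3379 were listed higher and 1731 lower, so most genes were likewise not in the tables.

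The word "mitochondrial" in a description was checked against the locations in the RefSeq annotation. A location was noted for 31 members, and 25 of these named the mitochondrion. The chloroplast or plastid was named for 7, beside the mitochondrion for 6 of them and alone for DEGP11. Of those 7 members, 5 were listed lower: TIM22-2, TIM22-3, ALDH5F1, AT5G39410 and BOU. AAC3 and DEGP11 were listed higher. Location notes were uneven, held by 19 of 22 members listed lower and 12 of 25 listed higher. Locations were not counted over all listed genes. The remaining 5 noted members named neither organelle. The set is therefore one of descriptions, and not of proteins shown here to be in mitochondria. For APO3, DGP2, AT5G39410, BAC2 and AT5G66650, an annotated gene on the opposite strand overlaps by at least 200 bases, and reads of the pair cannot be told apart unless counting used strand. A small share of HAC1, 2.49% of its 50-base windows, has an exact match elsewhere in the genome.

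Site II elements, known from promoters of nuclear genes for organelle proteins, were found before 9 of 25 members listed higher (36.0%) and 8 of 22 listed lower (36.4%). Among all listed genes the shares were 11.6% of those higher and 24.8% of those lower, and 19.2% of all protein-coding genes held one in the same window. No test was run on these shares. Among windows with site II elements, those before AOX1C, AT1G78180, AT5G09300, FPS1, MPC2, TIM22-2 and TIM22-3 run into another protein-coding gene. So do the windows before pde191, with a telo-box, and ALDH5F1, with a G-box. The G-box was found before 3 of 25 members listed higher (12%) and 2 of 22 listed lower (9.09%), against 8.26% of all genes listed higher, 8.61% of those listed lower and 6.49% of all protein-coding genes. The telo-box was found before 2 members listed higher (8.0%) and 1 listed lower (4.55%), against 2.37%, 4.27% and 4.49% of the same sets. The RY repeat CATGCA, known from seed genes, was found in 0 members, against 13.3% of genes listed higher, 7.28% of those listed lower and 8.43% of all protein-coding genes. BOU, at chr5:18990868-18991117 on the minus strand, is shown as a member listed lower with a pair of site II elements in capitals, beside the same letters in NDA1, SDH2-3 and TIM23-3, which were listed higher.
BOU: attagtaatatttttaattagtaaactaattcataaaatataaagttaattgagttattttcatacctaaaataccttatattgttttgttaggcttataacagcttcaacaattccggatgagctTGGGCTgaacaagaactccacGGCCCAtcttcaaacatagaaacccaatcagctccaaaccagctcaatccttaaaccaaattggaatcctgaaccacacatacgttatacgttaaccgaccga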

How the data were processed

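The members and lists were chosen with earlier results of these data known. Per the labels' protocols, ribosomal RNA was depleted from total RNA, a stranded kit was used, and single-end reads of 50 bases were made. The submitters' processing notes name TAIR10 and DESeq2; aligner, counter and strand setting: not given in the sources used here. Per the file headers, the authors deposited raw read counts per gene and library, a p-value, a false discovery rate, and log2 fold changes with the mutant on top. The p-value columns were used only to check the threshold.

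Library scaling was recovered from the authors' deposited log2 fold changes by least squares, with 5 relative factors fitted over the 1774 genes that have 200 or more reads in each library. Residuals had a median size of 0.00029 on the log2 scale. The factors were 1.16, 1.04 and 1.20 for epl1ab-labelled replicates 1 to 3 and 1.0, 0.931 and 0.820 for Col-0 replicates 1 to 3. Counts were tested with edgeR 4.0.16 (R 4.3.3, limma 3.58.1) without a replicate block, after its expression filter, which left out 557 genes; each SE was obtained from the fold change and its F statistic. The step was tested on simulated counts, with 98 genes changed 2-fold and 96 changed 4-fold among 4477 unchanged genes. It recovered 48% of the 2-fold and 96.9% of the 4-fold changes, with 2 false calls. The deposited tables differ from that setting, as they hold only genes selected as changed. Each p-value sets the difference between labels against the spread between these libraries. That spread was estimated with information shared over the listed genes, all selected as changed. Alternatives were DESeq2 1.42.0, other scalings, no filter, a replicate block and left-out libraries. With 15 loci reassigned by exact start and end (ATOBGM among members, to AT1G07620), all 47 members matched the TAIR10.1 annotation. Genes were named by rule: all members of classes of up to 6, the 3 largest changes each way in larger classes at a mean of at least 50 normalised reads, the 5 highest levels, and the members differing most among epl1ab-labelled libraries. Another 10 were named after their values were seen, to account for every member, as were the genes named from lists. Role classes were set from the descriptions. Python 3.11.15, scipy 1.17.1 and pandas 2.3.3 were used.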

Additional observations from a re-analysis of the deposited data

How the results depend on the processing

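The 22 members called lower stayed 22 under every alternative run. They were listed from these same libraries, and both other scalings shifted fold changes downward, so this constancy is no test of the falls. The 23 called higher were 11 with DESeq2 size factors of the listed genes, 25 with DESeq2 on the recovered factors or with no filter, 21 with epl1ab-labelled replicate 1 alone, and 23 with each single library left out. TMM factors and size factors of the listed genes assume that most genes are unchanged, although every listed gene was selected as changed. They moved the median log2 fold change of all genes by -0.47 and -1.11. The median log2 fold change of members, 1.03, was then 0.55 and -0.09; it was 0.88 with epl1ab-labelled replicate 1 alone, and 0.92 to 1.02 with a library left out. Under the size factors of the listed genes, log2 fold changes turned to -0.03 for AOX1A, -0.01 for AT3G53940, -0.04 for AT4G36820, AT5G23930 and AT1G21400, -0.09 for POX2 and -0.0018 for ANAC13; AAC3, AT5G66650, SDH1-2, MPC2, AT1G62490, DEGP11, ATOBGM and PHB1 kept their direction and lost their call, at 0.03 to 0.82. The stress list had 2 genes called higher there, against 10 in each other setting. Libraries of the same replicate number did not deviate together: deviations from group means correlated at -0.273, -0.037 and -0.214 for numbers 1, 2 and 3 over 4773 genes. Unlike numbers correlated at -0.181 to 0.234. With 3 libraries per group these deviations depend on each other, so the values cannot decide whether libraries were paired by experiment. A fit with the replicate block called 23 members higher and 22 lower, with a median log2 fold change of 1.03. Depth limits members with few Col-0 reads (AATP1, AOX2, SDH2-3, DEGP11, AT3G20160, TIM23-3), each with 14 or fewer reads over Col-0. Of these, AATP1, DEGP11, AT3G20160 and TIM23-3 passed the count filter only through the epl1ab-labelled libraries, where they were high. Their calls therefore add no support to their listing. With no filter, the edgeR adjusted p was 0.0106 for AOX2 and 0.0176 for SDH2-3.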

Other observations

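Among gene models, 5 of 25 listed higher have 1 exon, against 0 of 22 listed lower, with medians of 4 and 5.5 exons. These 5 are AATP1, TIM23-3, AT3G20160, IPT7 and AT5G23930, and 4 of them were under 100 normalised reads in every library. Exons were not counted over all listed genes, so no background share stands beside these counts. AATP1 lies on chromosome 5 beside AT5G40000, also described as an AAA-ATPase, which had 23.4, 25.1 and 20.9 normalised reads in epl1ab-labelled libraries and 2.0, 0 and 2.44 in Col-0 (edgeR log2 fold change 3.88 ± 0.52 SE, adjusted p = 0.000205). AT5G40000 passed the count filter only through the epl1ab-labelled libraries, as AATP1 did. AATP1 has a synonym naming seed development in the annotation. The level of AATP1 was highest in epl1ab-labelled replicate 1, where the summed level of seed maturation genes was 1224.8, against 207016 and 300395 in replicates 2 and 3. The part of seed maturation transcripts in the rise of AATP1 was not tested. MPC2 lies beside ELIP2, an early light-inducible protein of the chloroplast, which had 273.1 ± 19.4 in epl1ab-labelled libraries and 15.5 ± 13.2 in Col-0 (SD, n = 3 each). Its edgeR adjusted p was 0.000317. A nearest protein-coding neighbour was listed for 17 members, and directions within such pairs were mixed. AT2G34610, AT1G78190, AT5G51040 and RBOHC rose beside members that fell, and AT3G53950 fell beside AT3G53940, which rose. Neighbours were not counted over all listed genes.

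An annotated gene on the opposite strand overlaps 14 members, by at least 200 bases for 5 of them: APO3, DGP2, AT5G39410, BAC2 and AT5G66650. Without knowing that counting used strand, reads from both strands cannot be told apart there. Windows of 50 exonic bases with an exact match elsewhere in the nuclear genome made up 2.49% of HAC1, 0.78% of AT5G51050 and 0.134% of AT1G62490, and 0 of the other 44 members.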
